A study of Mus musculus with 4 samples.

Results

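The genes described here are 10 markers of endothelial cells, the cells that line blood vessels, among the 43998 gene entries of a mouse testis RNA-seq table. They were chosen by symbol: Pecam1, Cdh5, Kdr, Tek, Tie1, Emcn, Esam, Flt1, Eng and Sox18 each matched 1 entry. The mutant mice are labelled germ cell RA signaling mutant (RA, retinoic acid), and the others control. Both kinds were C57BL/6 animals at postnatal day 4, and cells were selected from their testes with magnetic beads against CD90.2, the surface protein THY1, to enrich undifferentiated spermatogonia. Neither the labels nor the table name the allele, the driver of the germ cell defect or any transgene that controls also carry. Each genotype had 2 libraries, and the deposited table joins them into 1 combined RPKM value per gene (reads per kilobase of transcript, scaled to the depth of sequencing). There is therefore no spread between replicates, no SD and no p-value for any difference below.

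Endothelial cells form and maintain vessels through a few receptor systems. VEGF binds the tyrosine kinases FLT1 and KDR, angiopoietins bind TEK with TIE1 as its partner, and endoglin assists receptors for BMP and TGF-beta ligands. The junction proteins VE-cadherin, PECAM1 and ESAM hold neighbouring cells together, and transcription factors such as SOX18 direct vessel development. In the testis, vessels run in the interstitium, outside the seminiferous tubules that hold the spermatogonia.

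All 10 endothelial genes were detected at low levels in both genotypes, and none differed between the mutant and control values by 2-fold or more. Flt1 had the highest mutant value relative to control, at 1.49 times the control value, and Eng the lowest, at 0.580 times. The other 8 lay between these. The summed level of the 10 genes was 38.1 RPKM in mutant and 41.6 RPKM in control, a ratio of 0.917, and without Eng it was 34.0 RPKM in mutant and 34.4 RPKM in control.

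A difference was expressed as log2((mutant RPKM + 1) / (control RPKM + 1)), which understates differences of low genes, and a gene was counted as past 2-fold at a log2 difference of at least 1 in size. On this scale 0 of the 10 genes were past 2-fold, where 8.77% of the 16504 genes measured were (1 RPKM or more in either genotype), 4.42% with higher and 4.35% with lower mutant values. Among protein-coding genes with a mean of 1 to 10 RPKM, the band in which all 10 fall, 4.84% were past 2-fold. A count of 0 among 10 genes is near this background and is no result about the 10. In 6 of the 10 (Pecam1, Cdh5, Tie1, Emcn, Eng and Sox18) the difference was below 0, as it was for 49.6% of all genes measured and for 56.6% of protein-coding genes in that band. The median of the 10 was -0.08, beside 0.01 for all genes measured and -0.08 for protein-coding genes of 1 to 10 RPKM. All 10 passed the minimum of 1 RPKM, but Tie1 passed in control alone. Directions were also read under other scalings, 1 of which rescales the mutant values so that 13 fixed germ cell genes have a median difference of 0.

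**Figure D1:**
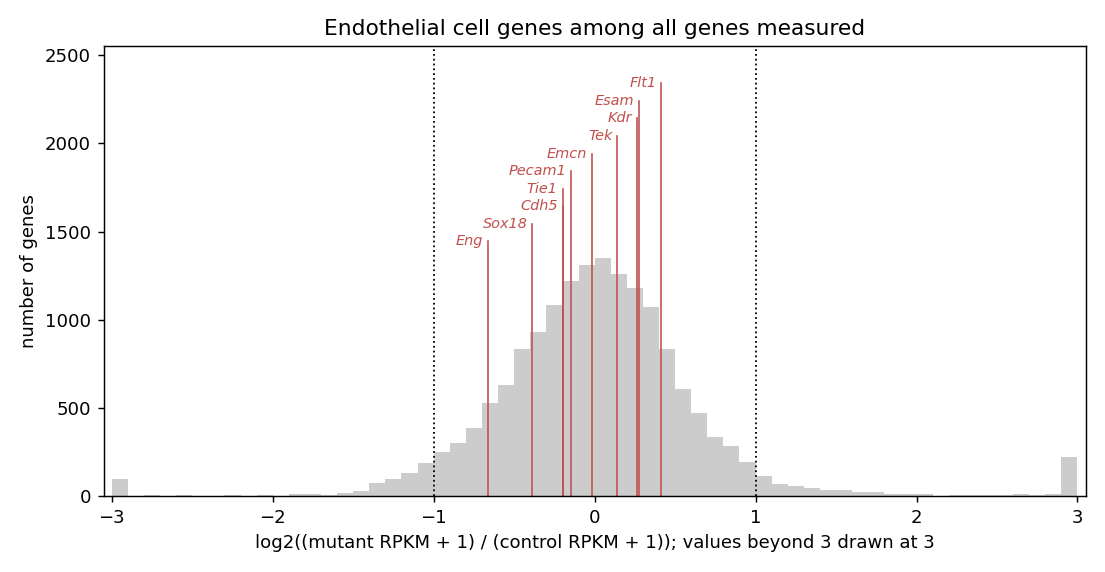
Histogram of log2((mutant RPKM + 1) / (control RPKM + 1)) over the 16504 genes measured (grey bars, number of genes per bin), with the value of each of the 10 endothelial genes as a red line and the 2-fold limits dotted. The 10 lines run between -0.66 for Eng and 0.41 for Flt1, all inside the limits. The 4 lines above 0 (Tek, Kdr, Esam and Flt1) fall below 0 when values are rescaled to germ cell genes.

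The precision of single values was set by read depth. Low values stepped in whole reads, and the steps placed the depth near 57.3 M reads in mutant and 56.6 M reads in control, if no further factor entered the values. In mutant 90.7% of 1510 low values, and in control 85.4% of 1522, lay within 0.1 of a whole read. From these steps and the shortest RefSeq-matched transcript of each gene, the 10 values rested on about 173 to 1601 reads in mutant and 173 to 1845 reads in control. The 95% intervals below come from these estimated reads (exact binomial for ratios, exact Poisson for levels). They cover counting error only, not differences between animals, dissections or libraries, so an interval that leaves out equality does not show a difference between genotypes. In bulk RNA, fewer cells of a type and less RNA per cell cannot be told apart.

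The cells themselves were checked against fixed marker lists. Germ cell genes such as Ddx4, the RNA helicase of germ cells (114 RPKM in mutant and 88.6 RPKM in control), were abundant, with a list sum of 1862 RPKM in mutant and 1359 RPKM in control. Macrophage genes were also abundant, with a sum of 1722 RPKM in mutant and 4715 RPKM in control. The 10 endothelial genes, none above 8.62 RPKM, had a sum of 38.1 RPKM in mutant and 41.6 RPKM in control, far below both sums. Some single genes of these lists were as low. Nanos2 of the germ cell list was at 5.35 RPKM in mutant and 3.37 RPKM in control. Cd163 of the macrophage list was at 0.617 RPKM in mutant and 1.36 RPKM in control. In the germ cell list Zbtb16 was past 2-fold on the higher side, except after rescaling to that list, and Sall4 on the lower side. Of all genes measured 4.42% were past 2-fold on the higher side and 4.35% on the lower side.

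**Figure D2:**
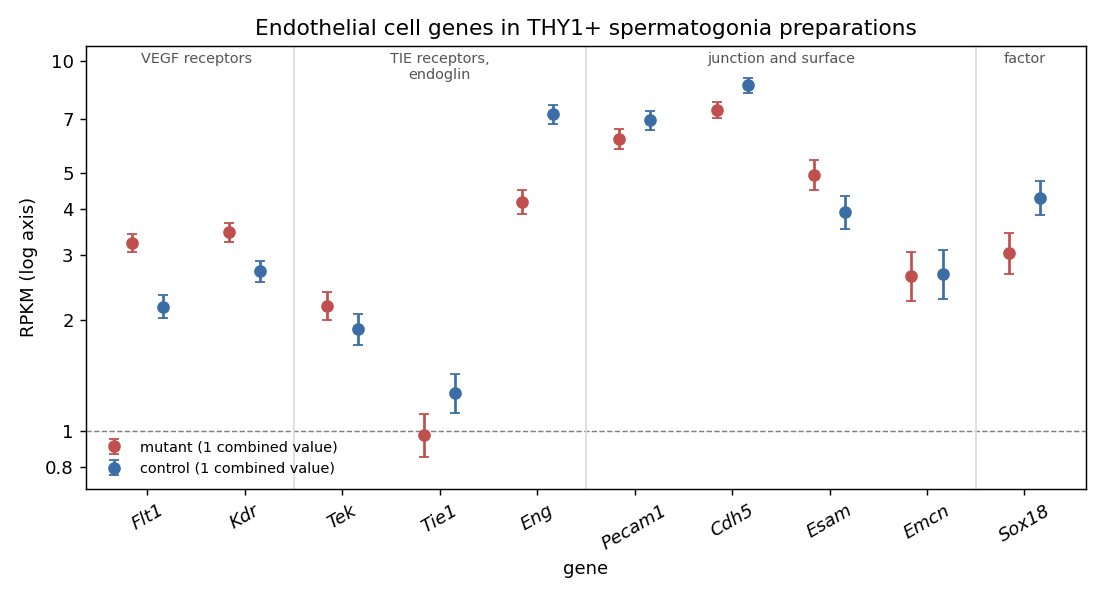
RPKM of the 10 endothelial genes on a log axis, with 1 combined value per genotype (mutant red, left; control blue, right) and bars for the 95% Poisson interval of the estimated reads, which covers counting error only. The dashed line marks the minimum of 1 RPKM. Bars of the genotypes lie apart for Flt1, Kdr and Esam, with mutant above, and for Eng, Tie1, Cdh5 and Sox18, with mutant below; after rescaling to germ cell genes Flt1, Kdr and Esam are no longer above.

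The VEGF receptors stood at similar levels and were both higher in mutant, except after rescaling to germ cell genes. Flt1, which binds VEGF tightly and limits its signal (chromosome 5, 147561604 to 147726011, minus strand), was at 3.23 RPKM in mutant and 2.17 RPKM in control. The ratio of 1.49 (counting interval 1.35 to 1.63) corresponds to a log2 difference of 0.41, higher than 79.8% of all genes measured. Kdr, the receptor that carries most of the VEGF signal in endothelium (chromosome 5, 75932827 to 75978458, minus strand), was at 3.45 RPKM in mutant and 2.71 RPKM in control. Its ratio was 1.28 (1.17 to 1.39) and its log2 difference 0.26. Together they summed to 6.68 RPKM in mutant and 4.88 RPKM in control, and the level of Flt1 relative to Kdr was 0.936 in mutant and 0.803 in control. A gene-level value does not separate membrane-bound from soluble FLT1 transcripts.

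The promoter windows of Flt1 and Kdr and of Eng are shown because these are the paired receptors with higher mutant values in the deposited scale (not after rescaling to germ cell genes) and the gene with the lowest difference. Each holds 300 bases, 250 before and 50 after the RefSeq start (GRCm38.p6), with the core GGAA of ETS factors, which act broadly in endothelium, or its reverse TTCC in capitals.
Flt1, chr5:147725962-147726261, minus strand: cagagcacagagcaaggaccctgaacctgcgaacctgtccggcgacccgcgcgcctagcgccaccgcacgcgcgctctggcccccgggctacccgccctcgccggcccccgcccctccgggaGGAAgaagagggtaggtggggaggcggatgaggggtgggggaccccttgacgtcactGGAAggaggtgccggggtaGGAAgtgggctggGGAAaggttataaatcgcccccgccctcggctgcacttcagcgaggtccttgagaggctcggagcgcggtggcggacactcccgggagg
Kdr, chr5:75978406-75978705, minus strand: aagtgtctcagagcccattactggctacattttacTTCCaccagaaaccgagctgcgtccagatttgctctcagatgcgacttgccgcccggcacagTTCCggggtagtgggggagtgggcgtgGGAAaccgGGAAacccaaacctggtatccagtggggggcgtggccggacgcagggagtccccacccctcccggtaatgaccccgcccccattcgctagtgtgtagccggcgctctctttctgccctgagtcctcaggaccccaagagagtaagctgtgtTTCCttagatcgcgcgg
Eng, chr2:32646345-32646644, plus strand: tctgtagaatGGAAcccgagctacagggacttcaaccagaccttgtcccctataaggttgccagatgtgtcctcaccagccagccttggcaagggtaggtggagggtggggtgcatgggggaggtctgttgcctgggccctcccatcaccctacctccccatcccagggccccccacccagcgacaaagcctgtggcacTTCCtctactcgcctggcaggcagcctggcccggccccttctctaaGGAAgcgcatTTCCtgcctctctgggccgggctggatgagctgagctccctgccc

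RefSeq promoter windows were matched for 6 of the 10 genes (Eng, Emcn, Tek, Tie1, Kdr and Flt1). On both strands the ETS core occurred 4 times in the window of Flt1, 5 times in that of Kdr, 4 times in that of Eng, 6 times in that of Emcn, 2 times in that of Tek and 9 times in that of Tie1. Among all 32851 promoter windows of the same length 96.0% held it, with a median of 3 matches, so its presence sets none of them apart. The SOX core ACAAT (reverse ATTGT) was found in the windows of Emcn and Tek, and in 31.0% of all windows. The nuclear receptor half-site AGGTCA (reverse TGACCT) was found in that of Emcn alone, and in 16.3% of all windows. In the window of Tek 1 SOX match and 1 ETS match share 1 base, and no other matches of different motifs overlapped in the 6 windows. A match is a string of letters, not a bound site. The highest and the lowest gene of the range, Flt1 and Eng, had the same number of ETS cores, and the GC content of their windows was 70.7% and 63.3%.

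The TIE receptors, which keep vessels stable, were the lowest of the group, and they differed in opposite directions in the deposited values. Tek, the angiopoietin receptor (chromosome 4, 94739289 to 94874976, plus strand), was at 2.19 RPKM in mutant and 1.89 RPKM in control. Its log2 difference of 0.14 became -0.01 with quantile normalization and -0.23 after rescaling to germ cell genes. Tie1, its partner without a known high-affinity ligand of its own (chromosome 4, 118471191 to 118490061, minus strand), was at 0.976 RPKM in mutant and 1.27 RPKM in control. Its log2 difference of -0.20 was -0.03 with the trends of transcript length and GC content removed. It was larger in size with a pseudocount of 0.1 (-0.35), with quantile normalization (-0.44) and after rescaling to germ cell genes (-0.45). Their sum was nearly equal, 3.16 RPKM in each genotype, and the level of Tek relative to Tie1 was 2.24 in mutant and 1.49 in control.

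Endoglin was the gene that differed most. Eng, the co-receptor for BMP and TGF-beta ligands (chromosome 2, 32646595 to 32682669, plus strand), was at 4.17 RPKM in mutant and 7.19 RPKM in control. The ratio of 0.580 (counting interval 0.526 to 0.638) gave a log2 difference of -0.66, and 11.1% of all genes measured had a lower one. Eng is also expressed by macrophages. Macrophage genes had lower mutant values in 14 of 14 cases, as did 49.6% of all genes measured. All except Cd14 and Cd163 passed 2-fold on the lower side (12 genes), as did 4.35% of all genes measured, and Cd163 reached 1 RPKM in control alone. No macrophage gene was at 0 in either genotype, their median was -1.36, and their part in the value of Eng was not tested. Relative to Pecam1, Eng was at 0.675 in mutant and 1.04 in control. The table gives the entry of Eng a span that runs on to 32704145. Of the genes that overlap Eng (Fpgs and small RNAs), Mir1954 alone has a value under its single symbol, 0 RPKM in both genotypes. Whether reads of these neighbours entered the value of Eng was not tested. The end of Eng overlaps Fpgs on the other strand by 61 bases, and no source used here says whether the counting used strand.

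Receptor partners that work with endoglin were read beside it, chosen after their values were seen. Acvrl1, the endothelial type I receptor that works with endoglin, was at 7.96 RPKM in mutant and 14.1 RPKM in control (log2 difference -0.75). Id1, a target gene of BMP signalling, was at 5.81 RPKM in mutant and 10.96 RPKM in control (-0.81). Tgfbr2, the type II TGF-beta receptor, was at 14.0 RPKM in mutant and 26.6 RPKM in control (-0.88). None of these 3 passed 2-fold as deposited, and all are also found in other cells of the testis. All 3 passed after rescaling to germ cell genes (-1.25, -1.29 and -1.41). That rescaling put 15.8% of all genes past 2-fold on the lower side and moved the median of all genes to -0.48. Smad1, which carries the BMP signal to the nucleus, was at 9.17 RPKM in mutant and 9.27 RPKM in control. Bmpr2, the type II BMP receptor, was at a similar level in both, at 13.7 RPKM in mutant and 13.4 RPKM in control, and its small difference of 0.02 was -0.33 with the length and GC trends removed and -0.51 after rescaling to germ cell genes.

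The junction genes Cdh5 and Pecam1 had the highest levels of the group in mutant, and both had slightly lower mutant than control values. Cdh5, which encodes VE-cadherin of endothelial adherens junctions (chromosome 8, 104101625 to 104144511, plus strand), was at 7.38 RPKM in mutant and 8.62 RPKM in control. Pecam1, an adhesion molecule also carried by platelets and leukocytes (chromosome 11, 106654217 to 106750628, minus strand), was at 6.17 RPKM in mutant and 6.92 RPKM in control. Their ratios were 0.856 (0.8004 to 0.9161) for Cdh5 and 0.891 (0.817 to 0.972) for Pecam1, and the level of Pecam1 relative to Cdh5 was 0.836 in mutant and 0.803 in control. An antisense gene of GENCODE, Gm29682, overlaps 4249 bases of Cdh5.

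Esam and Emcn completed the surface proteins. Esam, a tight junction adhesion molecule of endothelium and platelets (chromosome 9, 37528078 to 37538319, plus strand), was at 4.93 RPKM in mutant and 3.90 RPKM in control. Its log2 difference of 0.27 was 0.50 with the length and GC trends removed and -0.19 after rescaling to germ cell genes. Emcn, the mucin-like endomucin of capillary and venous endothelium (chromosome 3, 137341067 to 137432185, plus strand), was at 2.63 RPKM in mutant and 2.66 RPKM in control. Emcn was the member closest to equal, with a ratio of 0.986 (0.794 to 1.22), and the only one whose counting interval included equality.

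Sox18, a transcription factor of arterial and lymphatic endothelial development (chromosome 2, 181669836 to 181671640, minus strand), was at 3.03 RPKM in mutant and 4.28 RPKM in control. The ratio was 0.709 (0.600 to 0.839) and the log2 difference -0.39. This difference became -0.10 with the length and GC trends removed, -0.46 with quantile normalization and -0.80 after rescaling to germ cell genes. Its related factors Sox7 and Sox17 were under 1 RPKM in both genotypes (Sox7 0.335 RPKM in mutant and 0.285 RPKM in control, Sox17 0.578 RPKM in mutant and 0.664 RPKM in control). Of the 3, Sox18 alone reached the minimum for a comparison.

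The order of levels was set by Cdh5 at the top and Tie1 at the bottom in both genotypes. In mutant the order below Cdh5 was Pecam1, Esam, Eng, Kdr, Flt1, Sox18, Emcn and Tek. In control it was Eng, Pecam1, Sox18, Esam, Kdr, Emcn, Flt1 and Tek. Neighbours whose counting intervals overlapped were, in mutant, Esam with Eng and the run Kdr, Flt1, Sox18, Emcn and Tek, and in control Eng with Pecam1, Sox18 with Esam, and the run Kdr, Emcn, Flt1 and Tek. Eng ranked 4 in mutant and 2 in control, and Sox18 ranked 7 in mutant and 4 in control.

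Most ligands of these receptors were low. Of 11 ligand genes, 5 were measured and 6 lay under 1 RPKM in both genotypes. Vegfa, the main ligand of KDR, was at 3.80 RPKM in mutant and 4.30 RPKM in control (log2 difference -0.14), and Angpt2, an angiopoietin, at 2.65 RPKM in mutant and 2.44 RPKM in control (0.09, which was -0.03 with quantile normalization and -0.31 after rescaling to germ cell genes). Vegfb, a ligand of FLT1, was at 3.20 RPKM in mutant and 5.601 RPKM in control (-0.65). Tgfb1, above all 10 endothelial genes in level, was the 1 ligand past 2-fold on the lower side, at 10.04 RPKM in mutant and 21.7 RPKM in control, and it was not past 2-fold with the length and GC trends removed. Among 11 measured receptor partners Nrp2, a VEGF co-receptor, was the 1 past 2-fold, at 6.94 RPKM in mutant and 16.04 RPKM in control, and the list median was -0.16. Both calls stand beside 4.35% of all genes measured past 2-fold on the lower side, and 1 call is no result about a list.

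A longer list of endothelial surface and secreted genes also lay on both sides of 0. Of 27 genes, 19 were measured, 11 above 0 and 8 below, with a median of 0.13. Among those above 0, Robo4, Ptprb, Vwf, Mmrn2 and Adgrf5 reached the minimum of 1 RPKM in mutant alone. These genes entered through the genotype in which they were higher. The median was 0.10 over 23 genes without a filter on low values, and -0.40 over the 7 genes left at a minimum of 5 RPKM. It was -0.02 with quantile normalization and -0.25 after rescaling to germ cell genes. S1pr1, the receptor for sphingosine 1-phosphate, was the 1 past 2-fold, at 8.80 RPKM in mutant and 21.4 RPKM in control. On that side 4.35% of all genes measured were past 2-fold, so 1 of 19 is near the background. Genes used as endothelial markers were low: Cldn5, the tight junction claudin of endothelium, was at 2.39 RPKM in mutant and 2.09 RPKM in control, and Vwf, von Willebrand factor, at 1.38 RPKM in mutant and 0.910 RPKM in control. Plvap, the diaphragm protein of fenestrated capillaries, was at 1.04 RPKM in mutant and 3.04 RPKM in control, a log2 difference of -0.98 that passed 2-fold with either smaller pseudocount. The most abundant genes of the list were Mcam, at 101 RPKM in mutant and 134 RPKM in control, and Cd34, at 14.8 RPKM in mutant and 16.1 RPKM in control.

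Most endothelial transcription factors had lower mutant values. Of 17, 13 were measured, 11 of them below 0 (49.6% of all genes measured), and 2 passed the 2-fold limit on the lower side (4.35% of all genes). Gata2, below 0, reached 1 RPKM in control alone. Their median was -0.75, or -0.39 over the 16 genes left without a filter on low values. After rescaling to germ cell genes 7 were past 2-fold, where 15.8% of all genes were past it on the lower side. Klf2, a factor induced by blood flow, was at 6.92 RPKM in mutant and 18.8 RPKM in control, and Lyl1, a factor of blood and endothelial precursors, at 8.29 RPKM in mutant and 20.3 RPKM in control. With the length and GC trends removed Lyl1 was no longer past 2-fold, at -0.91, and Mef2c, a factor of muscle, vessels and blood, was, at -1.11. Erg, an ETS factor that maintains endothelial identity, had a higher mutant value, at 10.7 RPKM in mutant and 6.96 RPKM in control (0.55). Its difference stayed above 0 under every scaling run but was nearly equal, at 0.03, after rescaling to germ cell genes. Several of these factors, among them Lyl1, Lmo2, Fli1 and Mef2c, also act in blood cells. The macrophage sum was 0.365 times the control sum in the mutant, and its part in the median of this list was not tested.

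**Figure D3:**
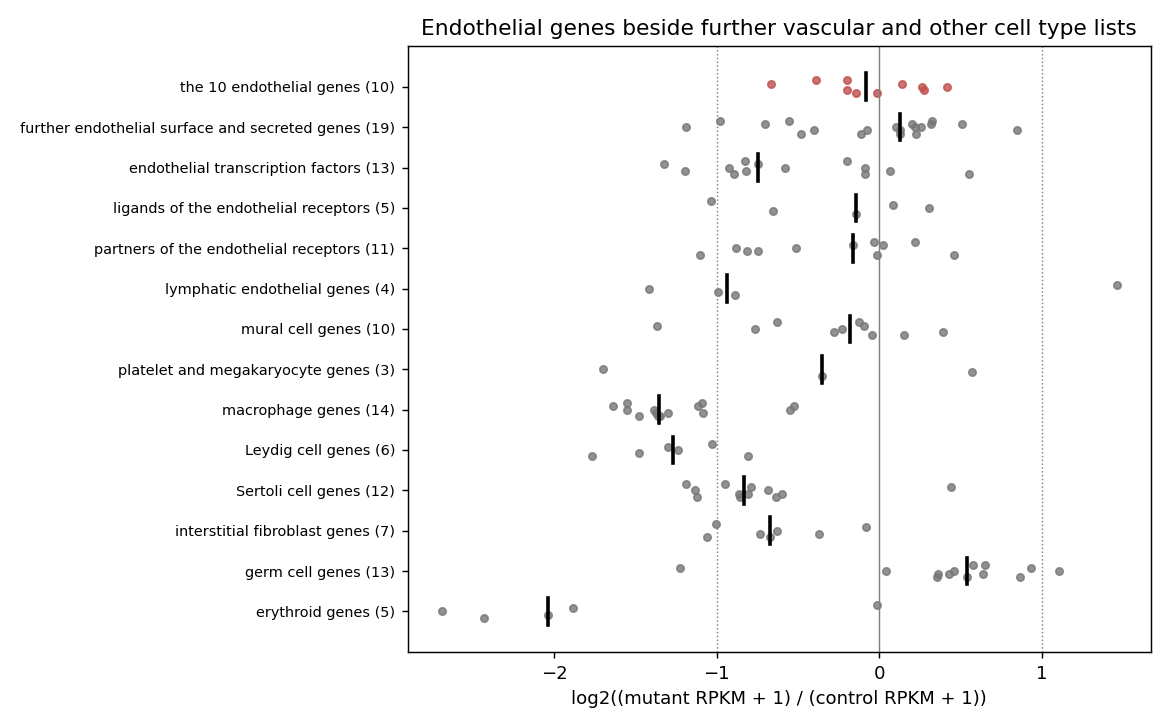
Each point is 1 measured gene at its log2((mutant RPKM + 1) / (control RPKM + 1)), in rows by gene list with the number of measured genes in brackets; the 10 endothelial genes are red, black bars are medians and dotted lines the 2-fold limits. The 10 endothelial genes have a median of -0.08, the macrophage genes -1.36, the Leydig cell genes -1.27, the Sertoli cell genes -0.83 and the germ cell genes 0.54, which is 0 by construction after rescaling to those genes.

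Vessel-associated cells and lymphatic vessels were read beside them. All 10 mural cell genes, which mark pericytes and vascular smooth muscle, were measured, 8 of them below 0 (49.6% of all genes measured), with a median of -0.18. This median was -0.07 with the length and GC trends removed, -0.32 with quantile normalization, -0.53 after rescaling to germ cell genes and -0.63 over the 5 genes left at a minimum of 5 RPKM. Pdgfrb, the PDGF receptor of pericytes, was at 5.12 RPKM in mutant and 5.30 RPKM in control. Acta2, the smooth muscle actin also made by peritubular myoid cells, was the 1 past 2-fold, at 25.0 RPKM in mutant and 66.1 RPKM in control. Of all genes measured 4.35% were past 2-fold on that side. Of the 7 lymphatic genes 4 were measured and Prox1, the defining factor, was under 1 RPKM in both genotypes (0.414 in mutant and 0.581 in control). Of the 4 measured, 3 were below 0 (49.6% of all genes measured), with a median of -0.94. It was -0.46 over 7 genes without a filter on low values, and 0.29 over the 2 left at a minimum of 5 RPKM. Lyve1 (log2 difference -0.89) and Pdpn (-0.99) were below 0 without passing 2-fold, and Pdpn passed with either smaller pseudocount. Ccl21a was past 2-fold on the lower side, at 0.606 RPKM in mutant and 3.30 RPKM in control, and reached 1 RPKM in control alone. Reln was past it on the higher side, at 25.5 RPKM in mutant and 8.63 RPKM in control. At a log2 difference of 0.91 Reln no longer passed after rescaling to germ cell genes.

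Platelets and megakaryocytes share Pecam1 and Esam with endothelium. The platelet genes Gp9, Ppbp and Treml1 were under 1 RPKM in both genotypes. Itga2b was at 2.40 RPKM in mutant and 3.34 RPKM in control (log2 difference -0.35). Gp1ba was at 2.86 RPKM in mutant and 1.60 RPKM in control (0.57, and 0.17 after rescaling to germ cell genes). These levels lay within the range of the 10 endothelial genes. Pf4, which macrophages also express, was at 275 RPKM in mutant and 895 RPKM in control. The erythroid genes, which mark red blood cells inside or outside vessels, had the lowest median of all lists, -2.04, with 5 of 5 measured genes below 0 and the globin genes Hba-a1, Hba-a2, Hbb-bs and Hbb-bt past 2-fold. Alas2 was nearly equal, at 6.40 RPKM in mutant and 6.46 RPKM in control (-0.01). It was above 0 with upper quartile scaling (0.002) and with the length and GC trends removed (0.19). Hbb-bs was at 33.8 RPKM in mutant and 224 RPKM in control. Leydig cell genes had a median of -1.27, with 6 of 6 measured below 0 and Cyp17a1, Hsd3b1, Star, Lhcgr and Nr5a1 past 2-fold. Sertoli cell genes had a median of -0.83, with 11 of 12 below 0 and Clu, Amhr2 and Cldn11 past 2-fold, and interstitial fibroblast genes one of -0.67, with 7 of 7 below 0 and Tcf21 and Igf1 past 2-fold. The shares of these lists as deposited stand beside 49.6% of all genes measured below 0 and 4.35% past 2-fold on the lower side. With the length and GC trends removed 1 Sertoli and 1 fibroblast gene were past 2-fold, beside 4.28% of all genes on that side. After rescaling to germ cell genes 9 and 5 were, beside 15.8% of all genes. With 1 combined value per genotype, the difference between these lists and the endothelial genes could not be tested.

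Scaling was the choice that moved the endothelial genes most. The 4 genes above 0, Flt1, Esam, Kdr and Tek, fell below 0 when mutant values were multiplied by 0.671 to bring the germ cell genes to a median of 0, a step that moved the median of all genes to -0.48. The median of the 10 was then -0.43, slightly above that of all genes. The other 6 were below 0 in every alternative that kept them, and Tie1, Emcn and Sox18 were not kept at a minimum of 5 RPKM. Pseudocounts and filters cannot change a sign, and the rescaling to germ cell genes lowers every mutant value. Only upper quartile scaling, quantile normalization and the removal of trends could therefore have moved these genes above 0.

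**Figure D4:**
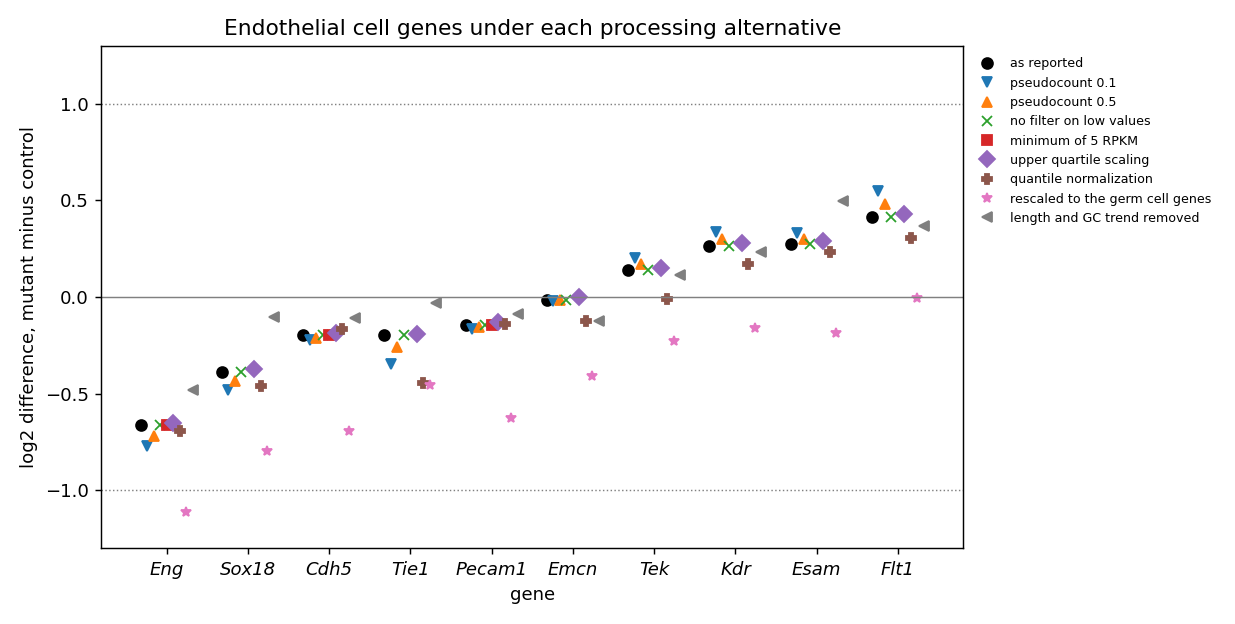
Log2 difference, mutant minus control, of each endothelial gene (columns) as reported and under each of 8 processing alternatives (symbols), with the 2-fold limits dotted. All values lie between -1.11 and 0.55. Eng passes the lower limit only after rescaling to germ cell genes, where 15.8% of all genes pass it. Flt1, Esam, Kdr and Tek change sign there, where 81.3% of all genes lie below 0. Tek also changes sign with quantile normalization.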

How the data were processed

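The deposited table gives RPKM per gene, per the file headers, with 1 column for both libraries of each genotype, so 2 columns stand for 4 libraries. The submitters' processing notes name TopHat2 2.0.11 and GRCm38. Not given in the sources used here are the counting program, its annotation, the way libraries were joined and whether they came from separate animals. Entries that pool several symbols (774 of the 17278 passing the minimum) were left out of counts and lists. Gene coordinates are those of GENCODE M21 on GRCm38. The table gives 8 of the 10 genes the same span, ends Cdh5 slightly earlier and runs the span of Eng on past its end. The 10 genes and the lists were chosen with earlier results of these data known. All 10 genes are named, and from each list those past 2-fold (for macrophages, by naming the others) and up to 3 of the most abundant; further genes were added after their values were seen. The planned model across libraries (limma) could not be run on 1 value per genotype. Trends with transcript length and GC content were removed by lowess (statsmodels 0.14.6, fraction 0.3) over 15517 genes. The calculations used Python 3.11.15 and were tested on simulated data.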

Additional observations from a re-analysis of the deposited data

How the results depend on the processing

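The number of endothelial genes past 2-fold stayed at 0 with pseudocounts of 0.1 and 0.5, without a filter, with a minimum of 5 RPKM, with upper quartile scaling, with quantile normalization and with the length and GC trends removed, and was 1 (Eng, log2 difference -1.11) after rescaling to the germ cell genes. The number below 0 was 10 after that rescaling, where 81.3% of all genes were below 0 and 15.8% past 2-fold on the lower side. It was 7 with quantile normalization (50.2% of all genes). It was 3 of the 3 genes left at a minimum of 5 RPKM (53.5% of all genes), where fewer genes were measured. The median was -0.43 after the rescaling, beside -0.48 for all genes. In the other alternatives the median lay between -0.20 and -0.06. Of 73 single values under alternatives, 53 lay inside the gene's counting interval. Those without a filter (10 genes) and at a minimum of 5 RPKM (3 genes) equal the reported values, so they lay inside by construction. Tek was -0.01 with quantile normalization. No paired analysis was possible because the columns combine both libraries of a genotype, and leaving out a replicate was not run for the same reason. Depth limits Emcn and Tie1 most, with about 173 to 278 estimated reads.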
